A study of Mus musculus with 3 samples.

Results

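The cytosolic ribosomal protein genes were taken as the protein-coding mouse genes whose symbols begin with Rpl or Rps followed by a number and at most a short suffix, together with Rplp0, Rplp1, Rplp2 and Rpsa. This gave 83 of the 21851 protein-coding genes on chromosomes 1 to 19, X and Y, with 51 genes for the large subunit and 32 for the small subunit. GLI3 binding was mapped in E10.5 mouse forelimb buds (32 to 35 somites) by chromatin immunoprecipitation and sequencing (ChIP-seq) against a FLAG tag. There were 2 ChIP replicates, each from pooled limb buds of 2 litters, and 1 input library of chromatin without immunoprecipitation. All 3 libraries were labelled wild type on a mixed strain background, and the series describes a FLAG-tagged Gli3 allele at its own locus. The binding data were 1 list of 17149 peaks with a single set of values per peak and no value per replicate or per library. No difference could therefore be set against the spread between replicates, no test was made, and the counts and medians below describe this list. The list holds no expression values, so the tissue label was not checked against marker RNAs.

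Ribosomal proteins are the protein part of the machine that translates messenger RNA, and every cell needs all of the common ones in balanced amounts. Their genes are scattered over the chromosomes, are short, are strongly transcribed in growing tissue, and many carry small nucleolar RNAs (snoRNAs) in their introns. GLI3, a Hedgehog pathway transcription factor, binds the motif GACCACCCA and acts mostly as a repressor in the limb bud, and ribosomal protein genes are not textbook targets of it.

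A promoter peak was a listed peak whose summit lay between 2 kb upstream and 1 kb downstream of any transcription start site (TSS) annotated for the gene. A promoter peak was listed for 34 of the 83 ribosomal protein genes, or 41.0%. Over all protein-coding genes the share was 30.7%, and over genes with a CpG island at the promoter it was 50.1%. The second background is the closer one, since 81 of the 83 ribosomal protein genes (97.6%) had a computed CpG island, against 58.0% of other genes. The list extends beyond the threshold of the study, a false discovery rate (FDR) under 0.05. Under that threshold 16 ribosomal protein genes had a promoter peak, or 19.3%, against 17% of all protein-coding genes and 28.2% of those with a CpG island. Over every listed peak the members' share thus lay above that of all genes and below that of CpG island genes, while under the FDR threshold it was near that of all genes. Against other genes its direction turned at an FDR under 0.01 (9.64% against 12.3%) and, for peaks under 0.05, among genes with 1 TSS (11.1% against 13.9%). Wilson 95% intervals, which cover counting error over genes and nothing else, ran from 31.0% to 51.7% for the first share and from 12.2% to 29.0% for the second. Both intervals contained the share of CpG island genes, and the second also that of all genes.

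**Figure D1:**
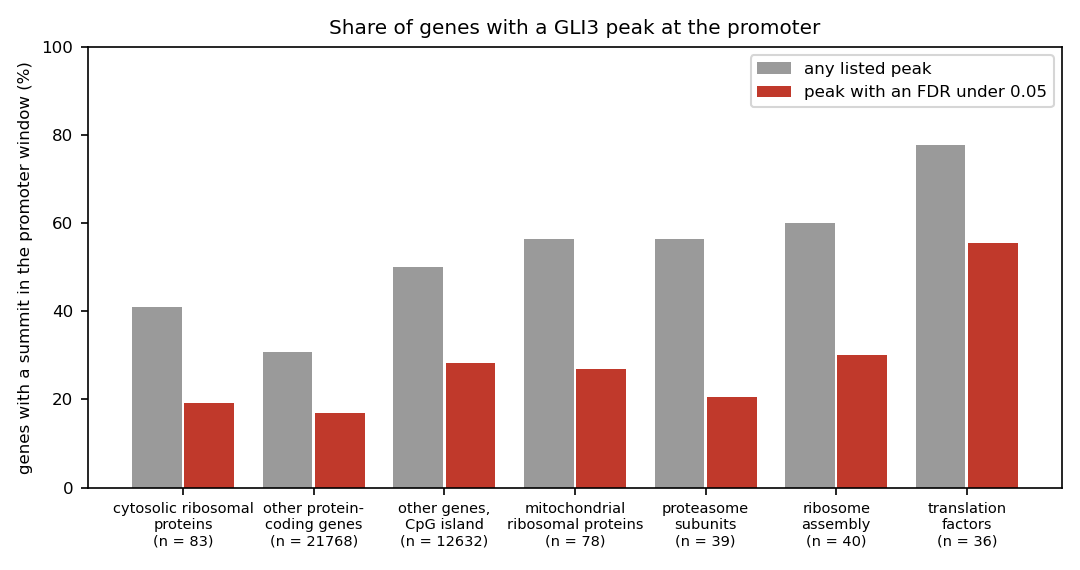
Bars show the percentage of genes in each group with a GLI3 peak summit in the promoter window, for every listed peak (grey) and for peaks with an FDR under 0.05 (red), with the number of genes in parentheses. Cytosolic ribosomal protein genes stood at 41.0% and 19.3%, between all other genes (30.7% and 17.0%) and other genes with a CpG island (50.2% and 28.2%).

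The DNA that was searched for the GLI motif is shown first, because this motif is what GLI3 recognises directly. Matches to GACCACCCA with at most 1 mismatch, on either strand, were sought within 250 bp of each summit. Of the 41 peaks at ribosomal protein promoters, 4 had such matches. They are given here 5′ to 3′ on the strand that reads as the motif, with the 9 matched bases in capitals (mm10, read from the GRCm38.p6 genome).

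Rpl11 (chr4:136053528-136053556, minus strand): accagcatcgGACAACCCAcgacctagtc
Rpl15 (chr14:18270242-18270270, plus strand): gagtgttataGACCACCCAcatcgtgacc
Rpl27 (chr11:101442318-101442346, plus strand): caacaactttGACCACCAAccgtggggca
Rpl30 (chr15:34442927-34442955, plus strand): gcgacaagtcGTCCACCCAgtgtgctcaa

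The match at Rpl15, which codes for a large-subunit protein, was exact and lay 141 bp from the summit and 370 bp after the TSS. The other matches each had 1 mismatch, counted from the 5′ end of the motif, namely C4A at Rpl11, C8A at Rpl27 and A2T at Rpl30. Those at Rpl11 and Rpl30 lay outside the listed peak interval, and those at Rpl15 and Rpl27 inside it. Only the match at Rpl27, another large-subunit gene, lay within 50 bp of its summit, at 25 bp. Its peak had a log2 fold enrichment of 2.06 and an FDR of 0.438, so it did not pass the FDR threshold. The match at Rpl30 lay near the weaker of its peaks, which had an FDR of 1. Of the 18 member peaks with an FDR under 0.05, 2 had a match (11.1%), against 17.8% of other promoter peaks. The 9 member peaks with an FDR under 0.01 had 0, against 18.6%. With 4 matches in all, no relation between matches and enrichment can be read.

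Motif matches with at most 1 mismatch stood at a lower share of ribosomal protein peaks than of other promoter peaks, a difference within counting error. The exact motif was found at a single member peak. The share with at most 1 mismatch was 9.76% of 41 peaks, against 15.3% of the 8070 peaks at other promoters only. In windows 2 kb to either side of the summits, a local background, the shares were 11.0% and 10.6%. Within 100 bp of the summit the shares were 2.44% and 7.22%, and for the exact motif within 250 bp they were 2.44% and 1.14%. At the ribosomal protein peaks the share near the summits was therefore about that of their own flanks, with 4 matches in all.

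When the motif was searched at every promoter whether or not a peak was listed, from 250 bp before to 50 bp after the gene's 5′ end (the core promoter), 9 of the 83 ribosomal protein genes held a match with at most 1 mismatch, or 10.8%. The share was 6.46% for other genes and 6.48% for all promoters. With the TSS nearest to the best peak in place of the 5′ end, it was 7.23% for members, against 6.46%. These genes included Rpl11, Rpl13, Rpl15, Rpl27, Rplp2, Rps14, Rps2 and Rps4x. A match stood in 4 of the 16 promoters with a peak under the FDR threshold and in 4 of the 49 with no listed peak. The difference was not tested, and the same split was not made for other genes. From the gene's 5′ end, the matches at Rpl11, Rpl15, Rplp2 and Rps14 lay at -114, -87, -130 and -22 bp. The summits under the threshold at these genes lay 126, 994, 177 and 1104 bp after that end. None of these core promoter matches was exact.

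The strongest binding at a ribosomal protein promoter was at Rps12, a small-subunit gene. Its peak (chr10:23787150-23787599) had a log2 fold enrichment over input of 3.54, an FDR of 0 and rank 691 in the list, with the summit 27 bp before the TSS. It was the only member peak among the first 1000 peaks of the list, which is 2.44% of member peaks against 6.22% of the promoter peaks of other genes. Rpl7, for a large-subunit protein, followed with peaks of 3.16 (chr1:16104950-16105749) and 2.92 (chr1:16104350-16104899) on the log2 scale, both with an FDR of 0. Both peaks also lay in the promoter window of Rdh10, although the nearest TSS was that of Rpl7. Their summits lay 425 and 200 bp before the TSS, and the first interval, at 800 bp, was the longest of the 41.

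Rps14, which codes for a protein of the small-subunit platform, had a log2 fold enrichment of 2.995 (chr18:60748000-60748399). That summit lay 531 bp after its nearest TSS and nearer to the TSS of Ndst1, a heparan sulfate enzyme gene. Rps25, a small-subunit gene known for its part in translation from internal entry sites, had peaks of 2.86 (chr9:44406950-44407349) and 2.50 (chr9:44407450-44407849), the second nearer to Trappc4. Rps27a makes a small-subunit protein fused to ubiquitin, and its peak of 2.70 (chr11:29547950-29548399) was nearer to the TSS of Clhc1. Several of the strongest peaks thus sat in promoters shared with a neighbouring gene. At such places the list cannot show which gene a peak belongs to.

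The next members under the threshold lay close together in enrichment. Rps27l, a p53-induced paralog of Rps27, had a log2 fold enrichment of 2.63 with its summit 4 bp before the TSS (chr9:66945900-66946349). Rpl5 and Rpl11 form, with the 5S RNA, the particle that can also bind the p53 regulator MDM2, and both passed the threshold. Rpl5 had 2.63 (FDR 0.00455, chr5:107900450-107900749) and Rpl11 had 2.51 (FDR 0.0114, chr4:136053300-136053499). Rps23, a protein of the decoding centre, had 2.53 (chr13:90922850-90923149). For these 4 genes the summit lay within 91 bp of a TSS and the nearest TSS was their own.

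Rps18 (log2 fold enrichment 2.45, chr17:33955600-33956299) and Rpl32 (2.45, chr6:115808700-115808999) came next, each with an FDR of 0.0208. The Rps18 summit lay nearer to the TSS of Vps52, the gene that runs the other way from the same promoter region. Rplp2, a protein of the stalk that recruits elongation factors to the large subunit, and Rpl10a, a large-subunit protein, both had 2.43 (chr7:141447500-141447799 and chr17:28328200-28328399). Rpl10a was the only member with 3 promoter peaks, and its other peaks had 1.97 (FDR 0.727) and 1.90 (FDR 0.789).

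The members nearest to the threshold differed little from each other. Just under it were Rpl30 (log2 fold enrichment 2.42, FDR 0.0208), Rpl15 (2.42, FDR 0.0208) and Rpl22 (2.33, FDR 0.0374), a large-subunit protein known for its part in T cell development. Just over it were Rpl10 (2.30, FDR 0.0704), whose protein completes the functional large subunit, and Rpl37 (2.29, FDR 0.0704). The lowest log2 fold enrichment of any peak under the threshold in the whole list was 2.31. Rpl30 and Rpl15 each had another listed peak, at 1.85 (FDR 1) and 2.08 (FDR 0.251).

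Of the 34 genes with a listed peak, 18 had none under the threshold. The lowest by their best peak included Rps10 (log2 fold enrichment 1.77), Rps3a1 (1.79), Rps9 (1.91) and Rpl37a (1.99). These were short intervals, from 100 to 150 bp, and no FDR among them was under 0.461. The highest of this set reached 2.30, and the set also included Rpl3, a protein of the peptidyl transferase centre, at 2.17, and the stalk gene Rplp1 at 2.04.

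**Figure D2:**
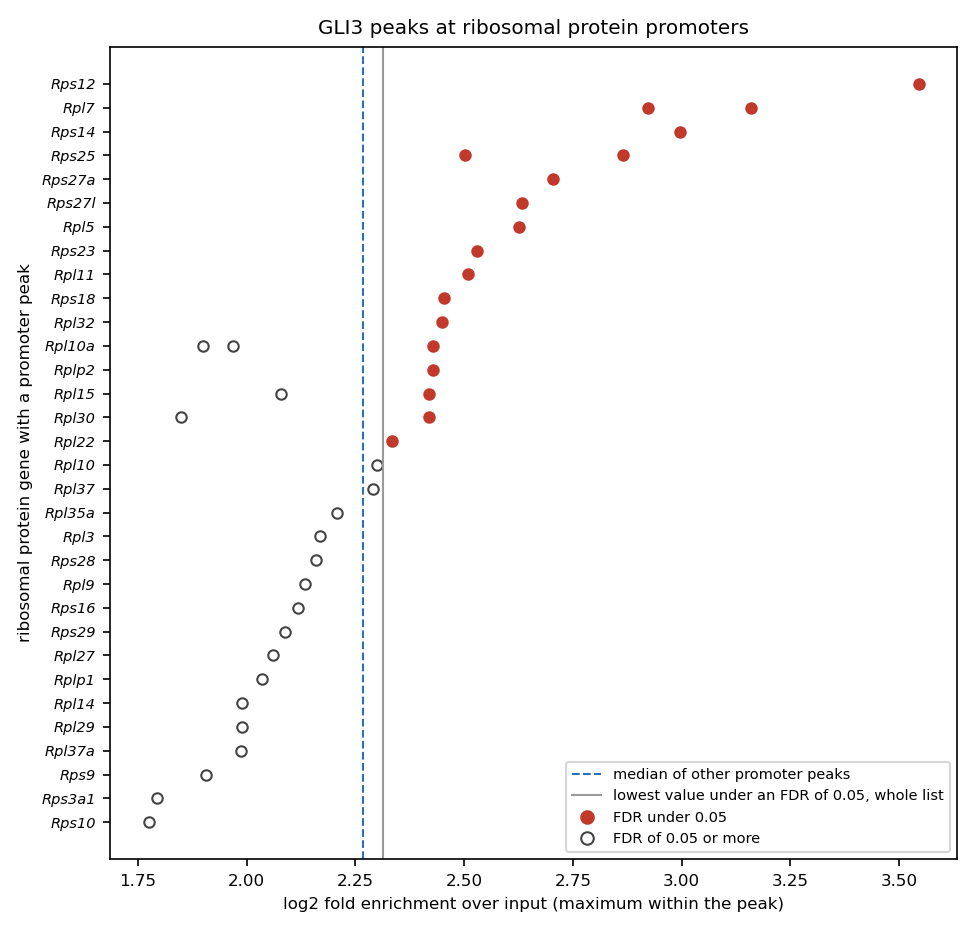
Each point is 1 of 38 peaks at the promoters of 32 ribosomal protein genes, not all of them named in the text. The remaining member peaks are not shown. Points are placed on the horizontal axis by log2 fold enrichment over input (the maximum within the peak). The vertical axis gives the gene, with the gene of the strongest peak at the top. Filled points have an FDR under 0.05, the dashed line is the median of other promoter peaks (2.27), and the solid line is the lowest value under that FDR in the whole list (2.31). Most points cluster between 1.77 and 2.70, with Rps12, Rpl7, Rps14 and Rps25 to the right of them.

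Taken as a set, the member peaks resembled other promoter peaks in strength. Their median log2 fold enrichment was 2.26 (interquartile range 1.99 to 2.50, highest 3.54), against 2.27 (2.03 to 2.65, highest 6.05) for the promoter peaks of other genes. An FDR under 0.05 was given to 18 of the 41 member peaks (43.9%) and to 46.2% of the others. Among peaks under the threshold the members' median was 2.52, against 2.70. The median rank was 8141 for member peaks and 7862 for the others, and by the Poisson p-value it was 6800 and 7881.5, in the other direction. The median length was 300 bp (interquartile range 200 to 400) for member peaks and 250 bp (150 to 400) for the others, but 275 and 300 bp when only the highest-ranked peak of each gene was kept. The highest values, 3.54 and 6.05, come from 41 and 8083 peaks, and the larger set includes the 13 peaks shared with members.

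The counts were also taken by subunit. A promoter peak was listed for 20 of 51 large-subunit genes (39.2%) and 14 of 32 small-subunit genes (43.8%), beside 30.7% of all genes and 50.1% of CpG island genes. Under an FDR of 0.05 the counts were 9 (17.6%) and 7 (21.9%), beside 17% and 28.2%. Under an FDR of 0.01 they were 2 (3.92%) and 6 (18.8%), beside 12.3% of other genes and 20.4% of other CpG island genes, and the large-subunit genes were Rpl5 and Rpl7. The median log2 fold enrichment was 2.23 over 26 large-subunit peaks and 2.45 over 15 small-subunit peaks. These counts are small, and the difference between subunits was not tested.

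Counts by functional region were small and stand beside shares of 30.7% (listed) and 17% (under the threshold) for all protein-coding genes. Rpl5 and Rpl11, the proteins of the 5S particle, both had a peak under the threshold. Of the stalk and its base (Rplp0, Rplp1, Rplp2 and Rpl12), Rplp2 had a peak under the threshold, Rplp1 had a listed peak over it, and the other genes had none. Of the proteins lining the exit tunnel (Rpl4, Rpl17 and Rpl39), none had a listed peak. Rpsa, a small-subunit protein also known as the laminin receptor, had none. Of the 4 X-linked members, Rpl10 had a listed peak and Rps4x, Rpl36a and Rpl39 had none.

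The paralogs with a known restricted expression or an auxiliary role were 6 members, of which only Rps27l had a peak, and that peak was under the FDR threshold. This count, 1 of 6 at both thresholds, stands beside 30.7% and 17% of all protein-coding genes. The shares of CpG island genes were 50.1% and 28.2%, and 6 genes are too few for a comparison. Rpl3l, the striated muscle form of Rpl3, had none, nor did the testis forms Rpl10l and Rpl39l, or Rpl22l1 and Rpl7l1. Rpl10l and Rpl22l1 had the most distant peaks of all members, with the nearest summit 856 and 542 kb away. Rps4l is annotated as a pseudogene and was not a member. Without the paralogs the share of members with a listed peak was 42.9% of 77.

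A promoter peak was listed for 41.0% of members, beside 30.7% of all protein-coding genes and 50.1% of those with a CpG island. No listed promoter peak was found for 49 members. Besides the genes already named they included Rps6, the target of the growth-controlled S6 kinase, Rps19, mutated in Diamond-Blackfan anaemia, Rpl24, the gene of the Belly spot and tail mouse, and Rpl38, which mouse embryos need for the translation of Hox messenger RNAs. The remainder included Rpl6, Rpl7a, Rpl8, Rpl13, Rpl13a, Rpl18, Rpl19, Rpl21, Rpl23, Rpl23a, Rpl26, Rpl27a, Rpl28, Rpl31, Rpl34, Rpl35, Rpl36 and Rpl41 of the large subunit. From the small subunit they included Rps2, Rps3, Rps7, Rps13, Rps15, Rps15a, Rps20, Rps21, Rps24, Rps26 and Rps27. Of these 49 genes, 48 had a CpG island, and Rpl3l was the exception. The nearest summit to their start sites lay at a median of 35.3 kb (2.36 to 856 kb), and for 9 it lay within 10 kb. This distance was not measured for other genes without a peak. No listed summit lay within the body of a member outside the promoter window.

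The summits at ribosomal protein promoters were placed against the start of transcription. With negative positions upstream, their median position was -64 bp from the nearest TSS of the gene (interquartile range -195 to 74 bp), and that of other promoter peaks was -2 bp (-137 to 141 bp). Member peaks were measured from the member's own TSS, including the 6 nearest to another gene, and other peaks from the nearest TSS of any gene. Without those 6 peaks the member median was also -64 bp. Within 250 bp of a TSS lay 33 of 41 (80.5%), against 66.5% of other promoter peaks. None lay more than 500 bp before a TSS, where 705 of the 8070 other peaks did, and only Rps14 lay more than 500 bp after one. The share after the TSS was 36.6%, against 49.2%. For peaks under the FDR threshold these differences were smaller, with 77.8% against 72.6% within 250 bp and 38.9% against 44.2% after the TSS. The median shifted to 28 bp after the start when the gene's 5′ end replaced the nearest TSS (89 bp for other peaks), and for peaks with an FDR under 0.01 it was also 28 bp after the nearest TSS, against -26 bp for other peaks.

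**Figure D3:**
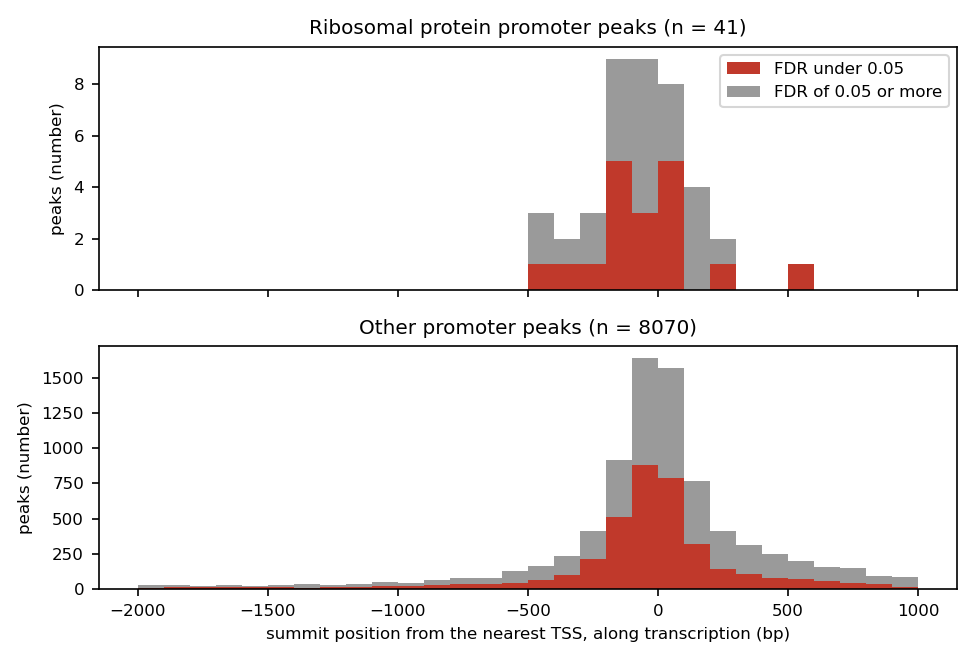
Histograms in 100 bp bins show the position of peak summits along the direction of transcription, negative values being upstream. The 41 ribosomal protein promoter peaks (top) are placed from the nearest TSS of the ribosomal protein gene. The 8070 other promoter peaks (bottom) are placed from the nearest TSS of any gene. Red marks peaks with an FDR under 0.05 and grey the others. The ribosomal protein summits ran from -489 to 531 bp, while the others filled the whole window.

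Members were also counted by whether they share a promoter region with a divergent neighbour. Another protein-coding gene ran the opposite way from within 1 kb at 12 members. Of these, 7 had a listed peak (58.3%) and 4 had one under the threshold, against 27 (38.0%) and 12 of the 71 other members. Among other genes the shares with a listed peak were 58.5% with a divergent neighbour and 27.9% without, and under the threshold 35.7% and 15.1%, so divergent ribosomal protein promoters were listed about as often as divergent promoters in general. Of the 41 member peaks, 13 also lay in the window of another gene and 6 were nearest to another gene's TSS. The 13 include the Rps10 peak, whose other gene is annotated as RPS10-NUDT3. These counts were not made for other promoter peaks, so no background stands beside them. The members with more than 1 annotated TSS (47) had a listed peak in 44.7% of cases and those with 1 TSS (36) in 36.1%, and for other genes the shares were 35.3% and 25.8%.

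Members were also counted by whether they host a snoRNA. Of 30 hosts, 11 had a listed peak (36.7%) and 5 had one under the threshold (16.7%), and of 53 genes without a snoRNA the counts were 23 (43.4%) and 11 (20.8%). These stand beside 30.7% and 17% of all genes and 50.1% and 28.2% of CpG island genes. Rpl4, with 5 snoRNAs the member with the most, had no peak, while Rps12, with 3, had the strongest.

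The letters of the promoters are shown next for genes at both ends of the range, with 150 bases before the gene's 5′ end printed 5′ to 3′ along the gene and matches to the elements searched in capitals (mm10, read from the GRCm38.p6 genome). Rps12, Rpl32 and Rps27l had a summit within the printed stretch, and Rps6 and Rps21 had no listed peak.

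Rps12 (chr10:23787276-23787425, minus strand): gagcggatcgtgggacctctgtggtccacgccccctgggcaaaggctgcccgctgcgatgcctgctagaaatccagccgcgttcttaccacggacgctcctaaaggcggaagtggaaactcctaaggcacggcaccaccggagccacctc
Rpl32 (chr6:115808748-115808897, minus strand): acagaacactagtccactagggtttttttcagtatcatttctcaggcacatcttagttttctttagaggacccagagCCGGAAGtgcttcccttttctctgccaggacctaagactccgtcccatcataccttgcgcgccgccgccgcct
Rps27l (chr9:66945936-66946085, plus strand): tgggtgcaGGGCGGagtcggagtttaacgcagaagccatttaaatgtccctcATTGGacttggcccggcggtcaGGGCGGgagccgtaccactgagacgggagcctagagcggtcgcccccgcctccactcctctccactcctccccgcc
Rps6 (chr4:86857413-86857562, minus strand): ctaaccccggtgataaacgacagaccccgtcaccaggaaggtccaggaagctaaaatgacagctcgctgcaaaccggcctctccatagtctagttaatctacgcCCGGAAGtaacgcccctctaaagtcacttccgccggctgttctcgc
Rps21 (chr2:180257227-180257376, plus strand): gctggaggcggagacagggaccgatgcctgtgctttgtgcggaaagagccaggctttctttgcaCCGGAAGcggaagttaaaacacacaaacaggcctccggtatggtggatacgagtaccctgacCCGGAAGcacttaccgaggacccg

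The capitals mark the ETS core CCGGAAG at Rpl32, Rps6 and Rps21, which stands in 2 copies at Rps21, and at Rps27l the SP box GGGCGG in 2 copies and the NFY box CCAAT read from the other strand. The stretch before Rps12 held none of the elements. A gene with no peak thus carried the same ETS letters as one with a peak.

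Over the core promoters, ETS, YY1 and pyrimidine start letters were more frequent at ribosomal protein genes than elsewhere. CCGGAAG was found on either strand in 23 of 83 (27.7%), against 10.7% of other genes, 16.0% of other CpG island genes and 10.8% of all promoters. The YY1 letters AANATGGCG were found in 8 (9.64%), against 2.88%, 4.37% and 2.90%. The SP box GGGCGG was found in 45.8%, against 43.0% of other genes, 63.5% of other CpG island genes and 43.0% of all promoters. CCAAT was found in 30.1%, against 39.0%, 38.1% and 39.0%. The E-box CACGTG was found in 13.3%, against 7.73%, 10.2% and 7.75%. The NRF1 letters GCGCATGCG were found in 1.20%, against 2.48%, 3.48% and 2.48%. A TATAAA box within 50 bp before the 5′ end was found in 0 of 83, against 3.27%, 1.29% and 3.25%. The TATA count is near the share of other CpG island genes, and the SP share of members lay near that of all promoters and below that of other CpG island genes.

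The gene's 5′ end is not always the start of the coding transcript, and at Rpl3 the promoter summit lay 8266 bp after it. With the TSS nearest to the best peak in its place, the ETS share was 31.3%, against 11.2% of other genes.

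The elements were also counted in members with and without a peak, with no test of the difference. ETS letters stood in 26.5% of the 34 promoters with a listed peak and in 28.6% of the 49 without. YY1 letters stood in 2 of the 34 and 6 of the 49, and in 0 of the 16 with a peak under the threshold. The SP box stood in 35.3% and 53.1%, and CCAAT in 38.2% and 24.5%. With these counts, a difference of a few genes moves each share by several percent.

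**Figure D4:**
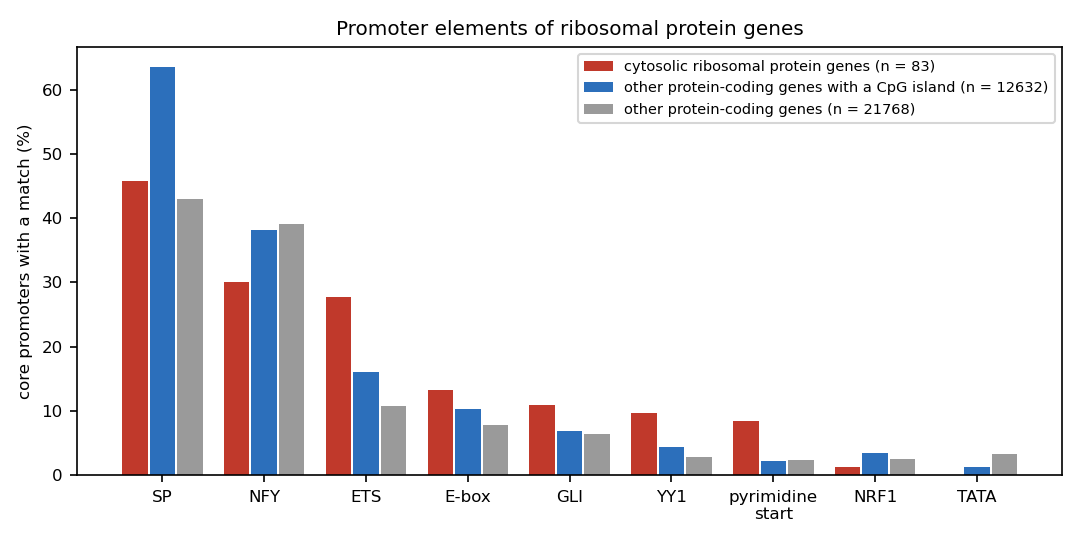
Bars give the percentage of core promoters (250 bp before to 50 bp after the gene's 5′ end) that hold each element, for the 83 ribosomal protein genes (red), other genes with a CpG island (blue) and all other genes (grey). ETS (27.7%) and YY1 (9.64%) letters stood above both backgrounds at ribosomal protein genes, SP boxes (45.8%) stood below those of other CpG island genes (63.5%), and no TATA box was found.

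Messenger RNAs for ribosomal proteins are known for a tract of pyrimidines at their first bases, which couples their translation to growth signals. With a start defined as C followed by 4 or more of C or T, 7 of 83 gene 5′ ends had one (8.43%), against 2.29% of other genes and 2.32% of all. At the start sites of RefSeq (GRCm38.p6), an alternative chosen after the values were seen, 13 of the 63 members present in that table had one (20.6%), against 2.64% of other genes and 2.71% of all. The 30 bases around such starts, 15 to either side, are given from RefSeq with the tract in capitals, first for genes with a promoter peak and then, from Rpl38 on, for genes without.

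Rplp2 (chr7:141447636-141447665, plus strand): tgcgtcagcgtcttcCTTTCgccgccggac
Rps18 (chr17:33955651-33955680, minus strand): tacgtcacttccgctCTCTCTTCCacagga
Rpl15 (chr14:18270972-18271001, minus strand): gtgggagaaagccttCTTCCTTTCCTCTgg
Rpl35a (chr16:33056467-33056496, plus strand): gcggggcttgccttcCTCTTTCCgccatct
Rpl38 (chr11:114668565-114668594, plus strand): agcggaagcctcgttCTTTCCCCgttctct
Rpl35 (chr2:39005117-39005146, minus strand): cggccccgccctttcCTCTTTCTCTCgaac
Rps6 (chr4:86857353-86857382, minus strand): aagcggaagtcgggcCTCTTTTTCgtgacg
Rpl28 (chr7:4792950-4792979, plus strand): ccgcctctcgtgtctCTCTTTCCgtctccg

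Starts of this kind were found in both sets. Of the 23 members with a peak that are in the table, 6 had such a start (26.1%), and of the 40 without a peak 7 did (17.5%). The median tract was 8 bases long over the members that had one, and 6 over other genes.

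The GC content of the promoter differed between ribosomal protein genes and other CpG island genes. The core promoter median was 55.3% GC for members (36.7% to 67.7%), 55% for other genes and 61.0% for other CpG island genes. The sequence 250 bp to either side of the summits had a median GC content of 59.9% at member peaks and 64.7% at other promoter peaks. CpG island promoters were therefore set side by side in strata of GC content, a comparison chosen after the values were seen. Of the 12 members under 50% GC, 2 had a listed peak (16.7%), against 46.0% of other genes. Those 2 were Rpl32 and Rps27a, and both were under the FDR threshold. From 50% to 55% GC the share was 15 of 26 (57.7%), against 43.3%, and from 55% to 60% it was 8 of 24 (33.3%), against 46.5%. From 60% to 65% it was 6 of 15 (40.0%), against 47.8%, and at 65% or more it was 2 of 4, against 57.8%. Members lay below the other genes in 4 of 5 strata and above them in 1. With the other genes weighted to the members' GC content, their share was 46.2%, or 25.2% under the FDR threshold, against 40.7% and 19.8% of the 81 members with a CpG island.

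**Figure D5:**
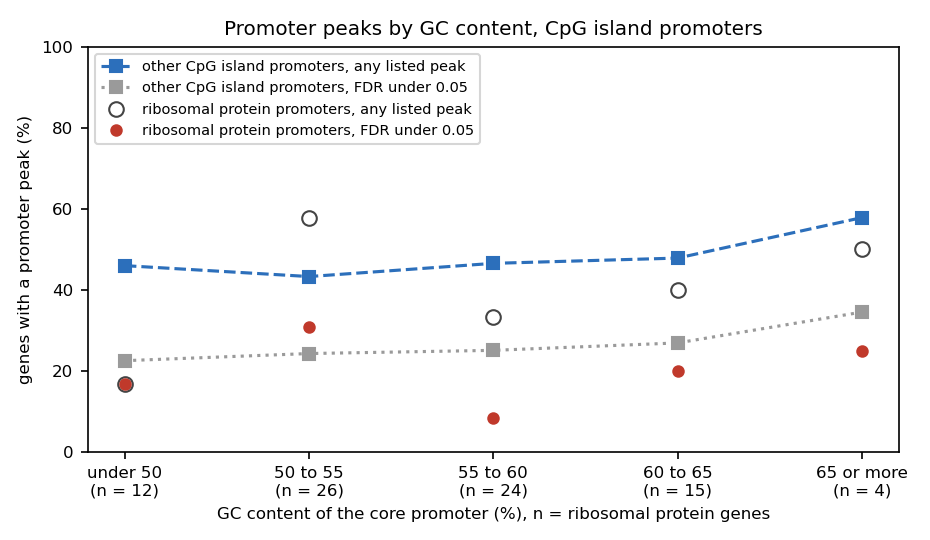
Points give the percentage of CpG island promoters with a GLI3 peak in strata of core promoter GC content, for ribosomal protein genes (circles, open for any listed peak and red for an FDR under 0.05) and other genes (squares joined by lines). The number of ribosomal protein genes per stratum is in parentheses. Ribosomal protein genes lay above the other genes from 50% to 55% GC (57.7% against 43.3%) and below them in the other strata.

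Other gene lists of protein synthesis and breakdown were counted in the same way. From 89.7% to 100% of the genes in each of these lists had a CpG island, so their shares stand beside the 50.1% (listed) and 28.2% (under the threshold) of CpG island genes. Of 36 translation factor genes 28 had a listed peak (77.8%) and 20 had one under the threshold (55.6%), the highest being Eif3d and Eif5a, both at a log2 fold enrichment of 3.65, and Eif4e, the cap-binding factor, at 3.47. Of 40 ribosome assembly genes 24 (60%) and 12 (30%) had one, led by the kinase gene Riok1 at 4.33, Gar1 at 3.78 and Pes1 at 3.70. Of 78 mitochondrial ribosomal protein genes 44 (56.4%) and 21 (26.9%) had one, led by Mrpl14 at 4.85, Mrpl23 at 3.55 and Mrpl10 at 3.47. Of 39 proteasome genes, which serve protein breakdown, 22 (56.4%) and 8 (20.5%) had one, led by Psmd1 at 3.64, Psmd5 at 2.90 and Psma7 at 2.82. The cytosolic ribosomal protein genes, at 41.0% and 19.3%, had the lowest share of these 5 lists at both thresholds, with the proteasome genes close to them under the threshold. Under it the assembly and mitochondrial lists lay near the share of CpG island genes and the translation factors above it.

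Of 4 genes linked to the cytosolic ribosome but outside the naming rule, 2 had a listed peak and 1 had one under the threshold. All 4 had a CpG island, and these counts stand beside 50.1% and 28.2% of CpG island genes. Fau, a ubiquitin-like protein fused to a small-subunit protein, had a peak of 3.35 on the log2 scale with an FDR of 0, in a promoter shared with Mrpl49. Rack1, the scaffold protein of the small subunit, and Rpl36al had none. The pseudogenes named after ribosomal proteins were nearly free of peaks, with a summit in 1 of 301 (0.332%), against 0.407% of all 13523 pseudogenes. That one was Rpl19-ps3, with summits in peaks of 3.57 (FDR 0) and 2.18 (FDR 0.143).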

How the data were processed

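GLI3-FLAG ChIP-seq of E10.5 forelimb buds was analysed from 1 deposited peak list. The submitters' processing notes name Bowtie2 2.2.5 and mm10, and the study's methods name CisGenome for peak calling with both biological replicates. The list is attached to 1 ChIP replicate and was treated as a joint call, which it does not state. For each peak the authors deposited an FDR, which is a q-value, the maximum within it of the log2 fold enrichment over input, a T statistic (a score that sets the rank), a Poisson p-value as its −log10 (smallest in the peak), and the interval and summit. Read totals are not in the list. The study states a minimum depth per sample, and the exact depth of each library is not known here.

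Summits were assigned to TSSs of basic protein-coding transcripts of GENCODE M21 on chromosomes 1 to 19, X and Y, and 5 peaks on unplaced sequence were left out. A CpG island was a 500 bp window with a GC fraction of at least 0.55 and an observed to expected CpG ratio over 0.65 within 1 kb of a TSS. Motifs were searched on both strands of the GRCm38.p6 genome, except TATA and the pyrimidine start, and motif matches can overlap. A snoRNA host held an annotated snoRNA within its span on its strand. RefSeq promoter sequences matched 63 of the 83 members. Python 3.11.15, pandas 2.3.3 and pysam 0.24.0 were used, and the assignment and searches were checked on simulated data. Wilson 95% intervals cover counting error only.

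The members, the other gene lists and the elements were chosen with earlier results of these data known. The genes named with values were the 12 members highest in log2 fold enrichment (with ties), the 5 lowest, the 3 peaks to either side of the FDR threshold, the stalk proteins and Rpsa, the paralogs, the X-linked members, members with several peaks or with a GLI match within 50 bp of a summit, the ribosome-linked genes, and the 3 highest of the other lists. Rpl3, the further genes with a GLI match, and those whose sequences are printed were named after their values were seen. Some genes of these sets are not reported here. Alternatives changed the window, the annotation, the threshold, the motif and the element window.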

Additional observations from a re-analysis of the deposited data

How the results depend on the processing

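Of 67 alternatives tried over 17 values, 51 stayed within the 95% counting interval of the value as reported and 16 left it. The share of members with a listed peak stayed between 36.1% and 42.9%, including at an FDR under 0.5, which was chosen after the data were seen. At an FDR under 0.01, the share of members with a peak was 9.64% (other genes 12.3%), the median log2 fold enrichment 2.86 (2.89), the median length 450 bp (500), the median rank 2632 (2529), the median position 28 bp after the TSS (others -26 bp) and the share of member peaks with a GLI match 0 of 9 (18.6%). At an FDR under 0.05 the medians were 2.52 (2.70), 400 bp (400) and rank 4988 (3632), and the share of snoRNA hosts with a peak was 16.7% (20.8% of the other members). These thresholds keep fewer and stronger peaks by construction. Among genes with 1 TSS the share with a peak under the threshold was 11.1% (13.9%). From the gene's 5′ end the median position was 28 bp after the start (others 89 bp after), on the other side of it than with the nearest TSS. The exact GLI motif stood at 2.44% of member peaks (1.14%), and at 2.44% (7.22%) with 1 mismatch within 100 bp. The E-box share was 7.23% (4.84%) from 100 bp before the 5′ end. The pyrimidine start share was 20.6% (2.64%) at RefSeq start sites. For these shifts of start site and window the cause was not tested.

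No paired analysis was possible because each peak has 1 set of values for all libraries, and leaving out a replicate was not possible for the same reason. The list limits every statement here. Exact depth and background per library are not in the list, binding weaker than what the caller listed is not seen, and at a shared promoter the gene a peak belongs to cannot be told apart. The members are few, so 1 gene moves their share by more than 1 percentage point.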
